A study of Homo sapiens with 6 samples.

Results

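The AP-1 transcription factors described here are the 8 genes FOS, FOSB, FOSL1, FOSL2, JUN, JUNB, JUND and ATF3, taken by symbol from the 57905 genes of the count tables. All 8 were found under 1 Ensembl identifier each, and all 8 were abundant enough in the 6 libraries to be among the 14578 genes tested. The libraries hold total RNA of the human glioma line U87, grown in culture. In 3 of them, labelled siRBM47, the treatment was an siRNA (100 pmol, given with a lipofectamine reagent) directed at the transcript of RBM47, which encodes a protein that binds RNA. The other 3 are labelled control, with genotype WT and treatment "no". The transfection protocol is written on the control samples too, without saying whether they received reagent alone, a non-targeting RNA or neither, so an effect of transfection and one of the siRNA cannot be told apart. No label ties a replicate to a culture of its own, and the p-values thus measure the spread between libraries, which may be technical.

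AP-1 is not a single protein but a dimer of basic leucine zipper proteins that binds short palindromic DNA elements. JUN proteins can pair with themselves or with a FOS protein, whereas FOS proteins need a JUN partner, so which FOS and JUN transcripts a cell holds bears on which dimers it can form. FOS, FOSB, JUN, JUNB and ATF3 are immediate early or stress-induced genes whose transcripts appear and decay quickly, while JUND is expressed more steadily. FOSL1, which encodes Fra-1, and FOSL2, which encodes Fra-2, lack the strong transactivation domain of FOS and FOSB, and Fra-1 is known from mesenchymal and invasive tumour cells, glioma among them.

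Total counts ran from 17580000 to 17880000 in the libraries labelled siRBM47 and from 15580000 to 18130000 in the control libraries, rounded. RBM47 itself had 3.54, 2.74 and 2.23 CPM (counts per 1000000, with library sizes scaled by TMM) in siRBM47 replicates 1 to 3, against 1.62, 1.73 and 5.75 CPM in control replicates 1 to 3. The groups overlapped (log2 fold change -0.11, SE 0.50, edgeR adjusted p = 0.942), and without control replicate 3 the value turned to 0.76 (SE 0.36, edgeR adjusted p = 0.152). RBM47 RNA was thus not detectably lower in siRBM47 in either fit, and every direction below is between libraries labelled siRBM47 and libraries labelled control. Control replicate 3 stood apart from the other controls, with a correlation of log2 CPM across genes of 0.941 and 0.95 with control replicates 1 and 2, which correlated at 0.988 with each other. By the same measure control replicate 3 was closer to siRBM47 replicates 1 to 3, at 0.956, 0.959 and 0.962. The other controls had values of 0.949 to 0.965 with those siRBM47 libraries. A fit without control replicate 3 thus omits a control that was nearer to siRBM47 than to its own group. The members and the calls on the lists are therefore given with and without control replicate 3. The glioma-associated transcripts VIM and CD44 were abundant (at least 2934 and 607 CPM before scaling between libraries). The other listed glioma markers were far lower, with at most 15.6 CPM for NES, 8.72 for OLIG2 and 1.57 for SOX2. The astrocyte markers GFAP and S100B had at most 28 and 7 counts in any library and AQP4 had 0. The 7 matched markers of immune, endothelial, epithelial and neuronal cells summed to 4.15 to 6.02 CPM in siRBM47 libraries and 2.55 to 5.96 CPM in control libraries, before scaling. Among them the endothelial VWF, with 3 to 56 counts, had 2.54, 1.20 and 1.73 CPM in siRBM47 and 0.203, 0.345 and 2.98 CPM in control. Its log2 fold change was 0.60 (SE 0.81, edgeR adjusted p = 0.754), and 2.68 (SE 0.58, edgeR adjusted p = 0.00591) without control replicate 3. In that fit edgeR also called FOS, FOSB, FOSL1 and JUNB. DESeq2 over 6 libraries called FOS, FOSL1 and JUNB, and gave VWF an adjusted p of 0.768. KRT18, EPCAM and SYP, the other markers of these cell types that were tested, were not called without control replicate 3. Their log2 fold changes there were -1.40, 0.24 and 0.20 (edgeR adjusted p of 0.108, 0.808 and 0.787). The part of VWF in the member calls was not tested.

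The members are scattered over the genome, and their upstream sequences show where some of them share a letter pattern. FOS lies on chromosome 14 (75278774 to 75282230, plus strand) and FOSB on chromosome 19 (45467995 to 45475179, plus). FOSL1 lies on chromosome 11 (65892049 to 65900573, minus) and FOSL2 on chromosome 2 (28392448 to 28417312, plus). JUN lies on chromosome 1 (58780788 to 58784327, minus), as does ATF3 (212565334 to 212620777, plus). JUNB (12791496 to 12793315, plus) and JUND (18279760 to 18281622, minus) are both on chromosome 19. All are protein-coding, with positions on GRCh38 from GENCODE release 29. The 3 JUN genes have a single exon, against 3 to 7 merged exons in the FOS family and 5 in ATF3. Of these genes JUNB has exon sequence covered on the opposite strand, 14.2% of its length by HOOK2, and the other 7 have none. The NEBNext Ultra kit used for the libraries does not record strand, so reads of JUNB and HOOK2 cannot be told apart over that stretch.

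The RefSeq promoter table holds 7 of the 8 members, without FOSL1. The 250 bases before each start were searched on both strands for TGACTCA (the AP-1 element), TGACGTCA (the cyclic AMP response element), TGACATCA (a variant of it that occurs in the JUN promoter), the shorter TGACGT, which TGACGTCA contains on either strand, and the serum response CArG box. TGACGT was found in FOS, FOSB, FOSL2 and JUND, against 7.1% of all 35116 promoters in the table. TGACATCA, held by 2.37% of promoters, was found in JUN and in the first of the ATF3 promoters. Its occurrence in the JUN promoter was known beforehand, so the JUN match cannot be set against that share. TGACGTCA was found in JUND, against 1.65% of promoters, at a site that also counts as a match to TGACGT. The shares are background only, and no match, in FOS or elsewhere, was tested against them. The letters TGACTCA (4.2% of promoters) and the CArG box (1.16%) do not occur in these windows of the 7 members. Sequence farther than 250 bases upstream was not searched, so these members, FOS included, may hold such elements there. A match is a description of letters and not evidence of binding. The sequences below are those of every member with a match. FOS, FOSB and FOSL2 carry TGACGT at nearly the same distance from the start. A link between these matches and the fold changes was not tested. For JUN and FOSL2 a stretch of 30 bases is given, since GENCODE starts these genes farther upstream and the stretch lies within them. Capitals mark the matches, and each is written 5′ to 3′ on the strand of the gene from RefSeq on GRCh38.p14.
FOS (chr14:75278578-75278773, plus): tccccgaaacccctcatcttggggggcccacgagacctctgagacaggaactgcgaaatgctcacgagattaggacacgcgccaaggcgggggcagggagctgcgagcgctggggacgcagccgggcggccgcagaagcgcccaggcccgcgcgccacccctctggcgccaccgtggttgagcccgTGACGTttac
FOSB (chr19:45467785-45467994, plus): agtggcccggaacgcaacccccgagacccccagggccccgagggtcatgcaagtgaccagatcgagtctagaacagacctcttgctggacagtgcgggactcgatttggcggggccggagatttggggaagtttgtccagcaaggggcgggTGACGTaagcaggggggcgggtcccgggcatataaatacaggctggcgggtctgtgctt
FOSL2 (chr2:28392780-28392809, plus): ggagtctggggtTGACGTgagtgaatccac
JUND (chr19:18281623-18281832, minus): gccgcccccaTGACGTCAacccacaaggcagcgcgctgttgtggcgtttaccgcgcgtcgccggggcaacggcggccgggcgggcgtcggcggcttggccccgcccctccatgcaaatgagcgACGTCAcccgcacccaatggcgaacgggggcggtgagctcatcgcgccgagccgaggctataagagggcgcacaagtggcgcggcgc
JUN (chr1:58784097-58784126, minus): aaggccttggggTGACATCAtgggctattt
ATF3 (chr1:212565157-212565333, plus): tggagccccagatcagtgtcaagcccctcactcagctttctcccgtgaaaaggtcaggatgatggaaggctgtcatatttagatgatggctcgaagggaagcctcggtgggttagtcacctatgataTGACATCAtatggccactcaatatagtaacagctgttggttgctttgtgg
Counted back from the RefSeq start, the first base of TGACGT lies 64 bases away in FOS, 60 in FOSB and 66 in FOSL2. In JUND the TGACGTCA begins 200 bases away and another, reversed copy of the shorter pattern begins at 87. TGACATCA begins 67 bases away in JUN and 123 in ATF3.

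Within the FOS family the 2 groups of libraries differed most in opposite directions for FOSL1 and FOS, while JUN, JUND and FOSL2 had group means within the spread of the replicates. By edgeR over the 6 libraries, 0 of the 8 members passed an adjusted p of 0.05, where 0.22% of all tested genes did (0.0823% higher and 0.137% lower in siRBM47). At an unadjusted p under 0.05, 2 members were higher and 3 lower, against 7.15% and 8.94% of all genes. The groups did not overlap for 4 members, 1 higher and 3 lower, against 22.6% of all genes in either direction. DESeq2 over the same libraries called FOS higher, where it called 1.83% of genes higher, and FOSL1 and JUNB lower, where it called 2.68% lower and 4.51% in all. Limma-voom called 0 members, with 0.0892% of genes higher, 0.144% lower and 0.233% in all. With library quality weights, which set control replicate 3 at 0.117, limma-voom called 2 members higher and 3 lower, against 21.8% and 22.4% of genes and 44.2% in all.

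In the fit without control replicate 3, edgeR called FOS and FOSB higher, where it called 10.1% of all genes higher, and FOSL1 and JUNB lower, where it called 11.3% lower and 21.4% in all. DESeq2 on those 5 libraries also called 2 higher and 2 lower, against 11.2% and 11.9% of genes and 23.1% in all. The median log2 fold change of the 8 members was -0.19 over 6 libraries and -0.27 without control replicate 3, against -0.01 and 0.02 for all tested genes. In these bulk libraries fewer cells with a transcript and less of it per cell cannot be told apart.

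**Figure D1:**
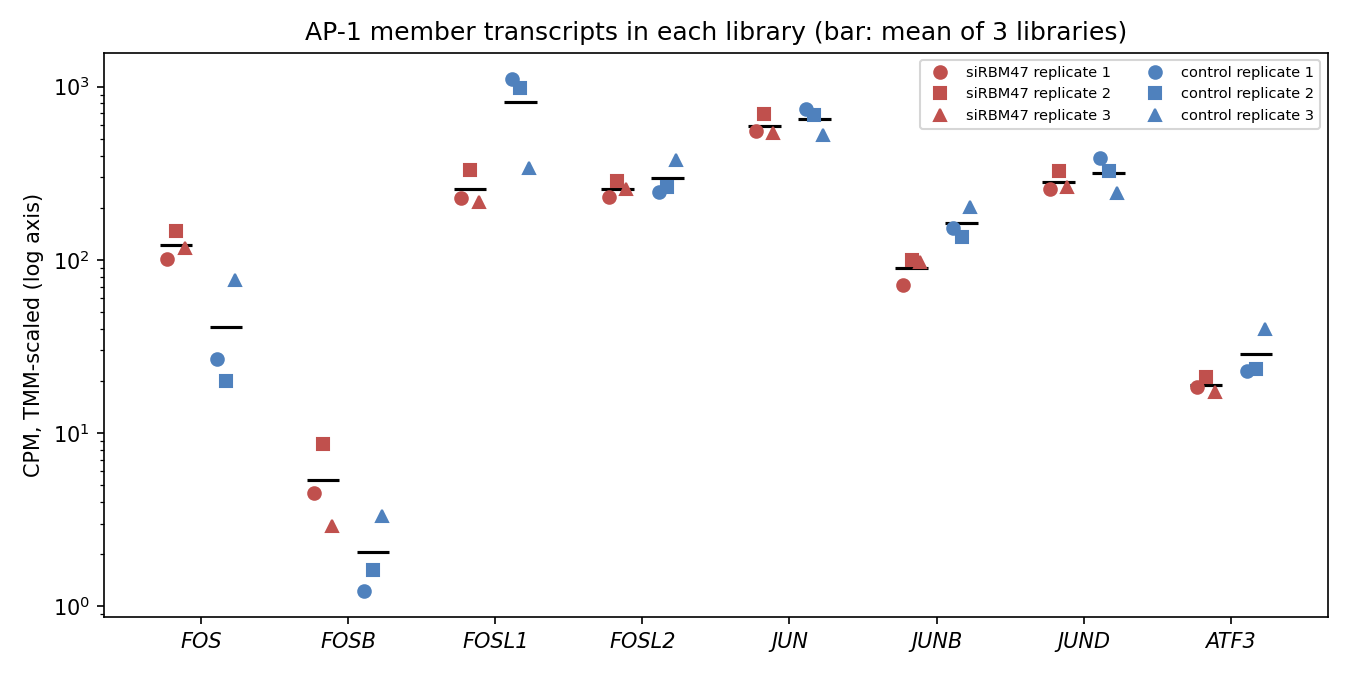
CPM of the 8 AP-1 members (log axis) in each of 3 siRBM47 libraries (red) and 3 control libraries (blue), with symbols for replicate numbers and a bar at each group mean. FOS lay between 101 and 147 CPM in siRBM47 libraries, above all controls, and FOSL1 between 215 and 329 CPM, below all controls.

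FOS, the founding member and a classical immediate early gene, had 101, 147 and 117 CPM in siRBM47 replicates 1 to 3, against 26.7, 19.9 and 76.9 CPM in control replicates 1 to 3. All siRBM47 libraries were above all control libraries, and control replicate 3 was the control nearest to them. The mean was 121 ± 23.5 CPM in siRBM47 and 41.1 ± 31.2 CPM in control (SD, n = 3 each), a log2 fold change of 1.56 (SE 0.45, 95% confidence interval, CI, 0.56 to 2.56) with an edgeR adjusted p of 0.146. Leaving out control replicate 3 gave 2.39 (SE 0.21) with an edgeR adjusted p of 1.03e-05, which is a fold of 5.22 against 2.95 over all libraries. The counts behind these values were 1820, 2571 and 2090 in siRBM47 and 394, 345 and 1445 in control, so counting error was small beside the spread within the controls.

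FOSB, the close relative of FOS, was the least abundant member. It had 82, 151 and 52 counts in siRBM47 replicates 1 to 3 and 18, 28 and 62 counts in control replicates 1 to 3. These correspond to 4.53, 8.63 and 2.90 CPM in siRBM47 and 1.22, 1.61 and 3.30 CPM in control. The groups overlapped, since siRBM47 replicate 3 (exact Poisson 95% interval 2.17 to 3.81 CPM, counting error only) lay below control replicate 3 (2.53 to 4.23 CPM). Between groups the log2 ratio was 1.37 (SE 0.49, 95% CI 0.27 to 2.48) with an edgeR adjusted p of 0.222. It was 1.91 (SE 0.45) with an edgeR adjusted p of 0.00919 without control replicate 3, and 0.87 (SE 0.50) with an edgeR adjusted p of 0.502 without siRBM47 replicate 2.

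FOSL1 had 227, 329 and 215 CPM in siRBM47 replicates 1 to 3, against 1112, 982 and 338 CPM in control replicates 1 to 3. The groups did not overlap, but the gap between siRBM47 replicate 2 and control replicate 3 was narrow, with Poisson intervals of 320 to 337 and 329 to 346 CPM that do overlap. The mean was 257 ± 62.4 CPM in siRBM47 and 811 ± 415 CPM in control (SD, n = 3 each). This is a log2 fold change of -1.66 (SE 0.39, 95% CI -2.54 to -0.77) with an edgeR adjusted p of 0.106, the lowest among the 8 members. The fit on the other 5 libraries gave -2.03 (SE 0.18) with an edgeR adjusted p of 1.03e-05.

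FOSL2 had 231, 285 and 257 CPM in siRBM47 replicates 1 to 3, against 248, 263 and 377 CPM in control replicates 1 to 3. The groups overlapped, with control replicate 3 highest of all. FOSL2 had a log2 fold change of -0.20 (SE 0.21, 95% CI -0.67 to 0.27, edgeR adjusted p = 0.682), and 0.01 (SE 0.15, 95% CI -0.30 to 0.33) without control replicate 3. Whether FOSL1 and FOSL2 differ from each other in this comparison was not tested.

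Among the JUN genes, JUNB, which in many settings restrains JUN and has weaker transactivation, had the clearest separation. It had 71.6, 100 and 97.3 CPM in siRBM47 replicates 1 to 3, against 153, 135 and 203 CPM in control replicates 1 to 3. All siRBM47 libraries were below all controls, and control replicate 3 was the control farthest from them. The mean was 89.7 ± 15.7 CPM in siRBM47 and 164 ± 35.5 CPM in control (SD, n = 3 each). JUNB had a log2 fold change of -0.87 (SE 0.22, 95% CI -1.36 to -0.37) with an edgeR adjusted p of 0.117. It was smaller but passed the threshold without control replicate 3, at -0.68 (SE 0.17) with an edgeR adjusted p of 0.0124.

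JUN, the partner shared by most AP-1 dimers, had 555, 693 and 541 CPM in siRBM47 replicates 1 to 3, against 739, 688 and 527 CPM in control replicates 1 to 3. The groups overlapped, with the highest and the lowest library both among the controls. For JUN the log2 fold change was -0.13 (SE 0.20, edgeR adjusted p = 0.799), and its 95% interval of -0.58 to 0.32 leaves room for a fold between 0.67 and 1.25. JUND, known to counter JUN in growth control, had 256, 324 and 265 CPM in siRBM47 and 386, 324 and 243 CPM in control. These groups overlapped as well, with a log2 fold change of -0.17 (SE 0.21, 95% CI -0.65 to 0.31, edgeR adjusted p = 0.735). The fit without control replicate 3 gave -0.26 (SE 0.15) for JUN and -0.33 (SE 0.15) for JUND, with edgeR adjusted p of 0.231 and 0.138.

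ATF3, a stress-induced basic leucine zipper protein that can pair with JUN and often represses, had 18.4, 21.0 and 17.2 CPM in siRBM47 replicates 1 to 3, against 22.7, 23.4 and 39.8 CPM in control replicates 1 to 3. The groups did not overlap, but control replicates 1 and 2 lay close above the siRBM47 libraries and control replicate 3 far above. Its log2 fold change was -0.60 (SE 0.26, 95% CI -1.17 to -0.03) with an edgeR adjusted p of 0.286. It was -0.29 (SE 0.18) with an edgeR adjusted p of 0.283 without control replicate 3.

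**Figure D2:**
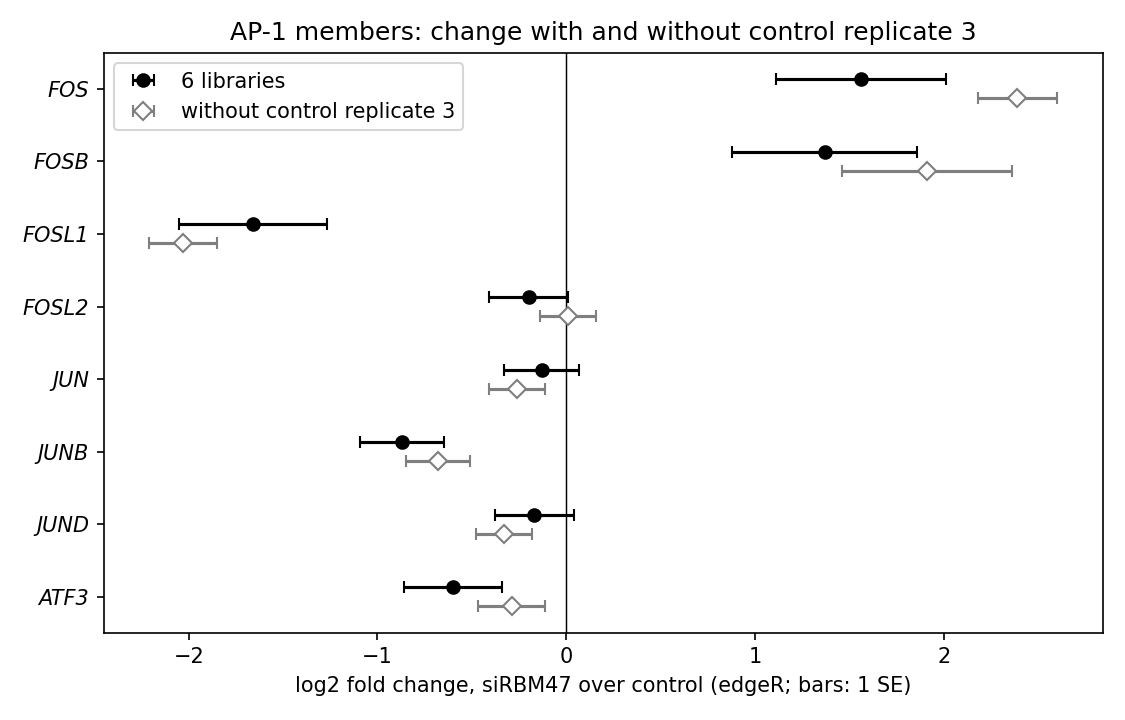
Log2 fold change of each member, siRBM47 over control, with 1 SE, over 6 libraries (filled) and without control replicate 3 (open). FOS moved to 2.39 and FOSL1 to -2.03 without that library, whereas JUNB and ATF3 moved nearer to 0, at -0.68 and -0.29.

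The position of control replicate 3 differed between members, and whether that position is particular to them was not tested. Over all genes this library correlated more closely with each siRBM47 library than with either other control. Its log2 CPM exceeded the mean of control replicates 1 and 2 by 1.74 for FOS and 1.17 for FOSB and was lower by a difference of -1.63 for FOSL1, in each case on the side of the siRBM47 libraries. For JUNB and ATF3 its differences of 0.50 and 0.79 were on the side away from them. For FOSL2, JUN and JUND, whose groups overlapped, the differences were 0.56, -0.44 and -0.54. The coefficient of variation of CPM over controls was 75.7% for FOS and 51.2% for FOSL1, against 17% for JUN, while over siRBM47 libraries it was 19.4%, 24.3% and 14.1% for these genes.

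Levels of different genes were compared per length, from the FPKM values (fragments per kilobase of transcript, scaled for depth) that the authors deposited. In siRBM47 libraries the order of mean FPKM was JUN at 178 ± 23.6, JUND at 150 ± 18.5, FOSL1 at 135 ± 31.6, JUNB at 49.1 ± 8.40, FOS at 37.2 ± 6.91, FOSL2 at 35.8 ± 3.48, ATF3 at 4.68 ± 0.44 and FOSB at 0.956 ± 0.518 (SD, n = 3). The ranges of JUN, JUND and FOSL1 overlapped between neighbours, as did those of JUNB, FOS and FOSL2. In control libraries FOSL1 came first at 426 ± 219 FPKM, followed by JUN at 194 ± 33.9, JUND at 168 ± 38.5, JUNB at 89.0 ± 18.8, FOSL2 at 40.8 ± 9.50, FOS at 12.5 ± 9.42, ATF3 at 7.06 ± 2.35 and FOSB at 0.363 ± 0.194. Here the neighbours whose ranges overlapped were FOSL1 with JUN, JUN with JUND, and FOS with ATF3. FOSL1 was the highest member in every control library, with a smaller lead in control replicate 3, where it had 176 FPKM and JUN 156 FPKM.

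The make-up of the FOS family at the RNA level differed between the groups accordingly. FOSL1 made up 65.2%, 66.8% and 61.1% of the summed FPKM of FOS, FOSB, FOSL1 and FOSL2 in siRBM47 replicates 1 to 3, against 93.2%, 92.3% and 69.9% in control replicates 1 to 3. FOS made up 16.8%, 17.4% and 19.3% in siRBM47 and 1.30%, 1.09% and 9.28% in control. FOSL1 exceeded FOS by factors of 3.88, 3.84 and 3.16 in siRBM47 libraries and 71.5, 84.9 and 7.53 in control libraries. In both shares and in this ratio the groups did not overlap. The shares and the ratio are built from FOS and FOSL1, whose own groups did not overlap, in opposite directions. They are therefore not a separate result, and no test was run on them. Control replicate 3 lay nearer to the siRBM47 libraries than to the other controls in the FOSL1 share and the ratio, and between them in the FOS share.

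The family sums behind these shares were 184, 257 and 186 FPKM in siRBM47 libraries and 627, 559 and 251 FPKM in control libraries. They overlapped, since siRBM47 replicate 2 lay above control replicate 3. The JUN family summed to 343, 431 and 358 FPKM in siRBM47 libraries and 509, 450 and 394 FPKM in control libraries, also overlapping. Within it JUN held 48.7%, 47.7% and 45.5% in siRBM47 and 43.4%, 45.6% and 39.6% in control, and JUNB held 11.5%, 12.6% and 15% in siRBM47 and 16.4%, 16.3% and 27.9% in control. Summed JUN over summed FOS family FPKM was 1.86, 1.68 and 1.92 in siRBM47 libraries, against 0.811, 0.806 and 1.57 in control libraries. Control replicates 1 and 2 were thus the 2 libraries in which FOS family transcripts outnumbered JUN family transcripts per length.

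**Figure D3:**
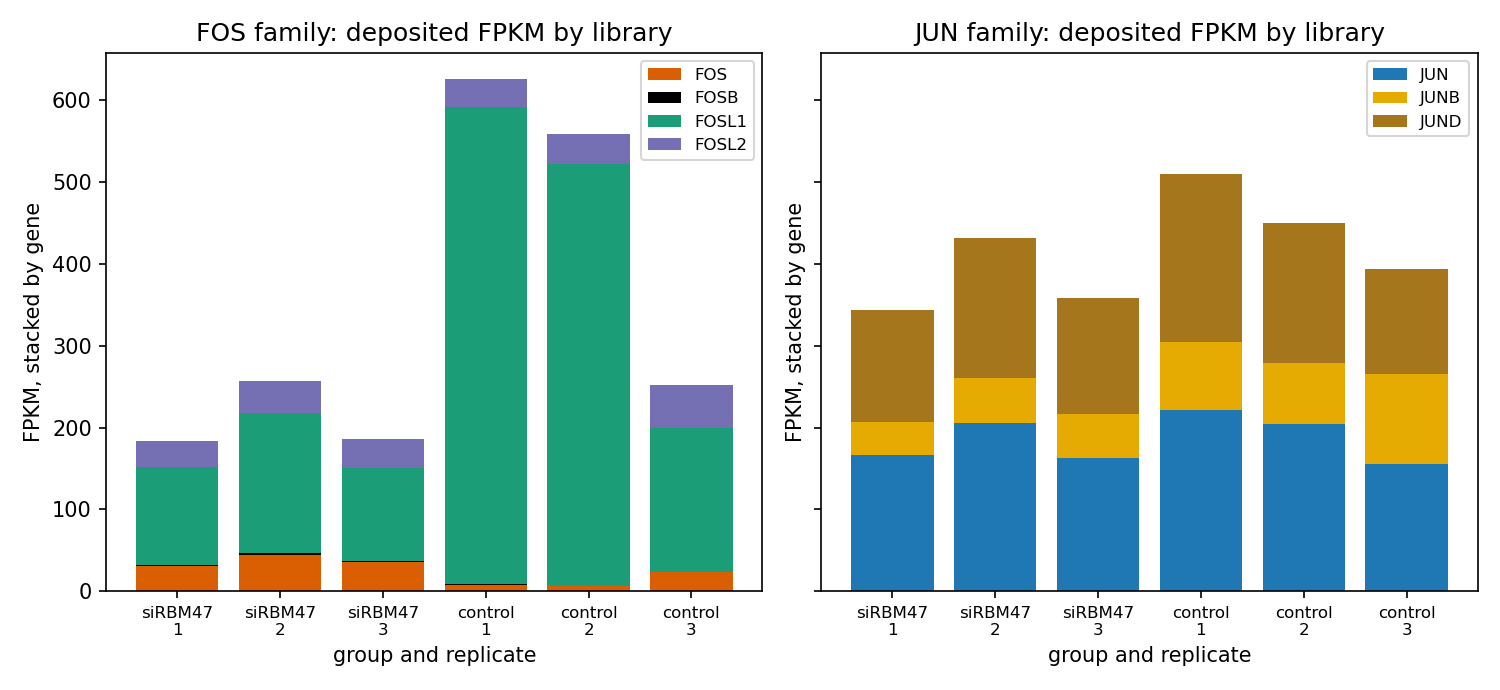
Deposited FPKM of the FOS family (left) and JUN family (right), stacked by gene, in 3 siRBM47 and 3 control libraries. FOSL1 reached 584 and 516 FPKM in control replicates 1 and 2 but 176 FPKM in control replicate 3, close to the 114 to 172 FPKM of the siRBM47 libraries.

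Other basic leucine zipper proteins that pair or compete with AP-1 were read from the same fit, from a list of 17 genes of which 16 were tested. By edgeR 0 passed over all genes, with 1 higher and 3 lower at an unadjusted p under 0.05 (7.15% and 8.94% of all genes). DESeq2 called 0 higher and 2 lower, MAFG and MAFF (1.83% and 2.68% of all genes), and limma-voom without quality weights called 0. With those weights limma-voom called 3 higher and 4 lower (21.8% and 22.4% of all genes). On omitting control replicate 3, edgeR called 1 gene higher and MAFG, MAFF and NFE2L1 lower, where it called 10.1% of all genes higher and 11.3% lower. The median log2 fold change of the list was 0.02, and 0.12 without control replicate 3, against -0.01 and 0.02 for all tested genes. MAFG, a small MAF protein without a transactivation domain, had 24.2, 28.5 and 25.8 CPM in siRBM47 and 58.4, 59.8 and 41.6 CPM in control, with no overlap of the groups. Its log2 fold change was -1.03 (SE 0.20, edgeR adjusted p = 0.0739), and -1.18 without control replicate 3 (edgeR adjusted p = 0.000355). An opposite-strand gene covers 4.3% of MAFG exon sequence. MAFF, another small MAF protein, had 60.7, 56.2 and 50 CPM in siRBM47 and 92.8, 92.8 and 76.8 CPM in control (log2 fold change -0.65, SE 0.18, edgeR adjusted p = 0.139), and -0.74 without control replicate 3 (edgeR adjusted p = 0.00483). NFE2L1, a partner of the small MAF proteins, had a log2 fold change of -0.69 (SE 0.22) with an edgeR adjusted p of 0.175, and of -0.48 with one of 0.0374 without control replicate 3. Genes on the opposite strand cover 3.3% of its exon sequence. BATF, a lymphoid AP-1 partner, was not tested, with 0 counts in every siRBM47 library and 3, 1 and 0 counts in control.

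Of 19 kinases and transcription factors that act upstream of AP-1, all were tested. Over 6 libraries 0 passed by edgeR with its count filter, by DESeq2 or by limma-voom without quality weights. With those weights limma-voom called 4 higher and 7 lower, where it called 21.8% of all genes higher and 22.4% lower. With no filter edgeR called 0 higher and 1 lower, and 804 genes in all. At an unadjusted p under 0.05 edgeR had 0 higher and 3 lower (7.15% and 8.94% of all genes). The median log2 fold change was -0.16, and -0.12 without control replicate 3, against -0.01 and 0.02 for all tested genes. MAP2K7, which activates the JUN N-terminal kinases, had 14.0, 27.5 and 18.5 CPM in siRBM47 and 42.0, 40.4 and 27.7 CPM in control. The highest siRBM47 library and the lowest control library of MAP2K7 nearly met, and its log2 fold change was -0.88 (SE 0.28, edgeR adjusted p = 0.18), and -1.04 without control replicate 3 (edgeR adjusted p = 0.00746). An opposite-strand gene covers 8.5% of MAP2K7 exon sequence. Next by p were the ribosomal S6 kinase RPS6KA1 at -0.50 (SE 0.20), the nuclear kinase RPS6KA5 at -0.83 (SE 0.36) and the p38 kinase MAPK14 at -0.42 (SE 0.19), with edgeR adjusted p between 0.268 and 0.327. Leaving out control replicate 3, edgeR called 2 of the list higher and 3 lower, MAP2K7 and RPS6KA1 among the lower ones, where it called 10.1% of all genes higher and 11.3% lower.

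Of 11 phosphatases and degradation factors that limit AP-1 activity, all were tested. None was called over 6 libraries by edgeR, by DESeq2 or by limma-voom without quality weights. With those weights limma-voom called 4 higher and 2 lower, where it called 21.8% of all genes higher and 22.4% lower. Even without adjustment 0 had an edgeR p under 0.05, and the median log2 fold change was -0.13, against -0.01 for all tested genes. The median turned to 0.10 without control replicate 3, against 0.02 for all genes, and to 0.16 with quality weights. The 4 with the smallest p were the ERK phosphatase DUSP6 at a log2 fold change of -0.55 (SE 0.25), the ubiquitin ligase COP1 at 0.38 (SE 0.17), the JNK and p38 phosphatase DUSP10 at 0.33 (SE 0.17) and the nuclear ERK phosphatase DUSP5 at -0.31 (SE 0.17). Their edgeR adjusted p lay between 0.319 and 0.413. DUSP6 was the 1 gene of this list that edgeR called, as lower, without control replicate 3 (11.3% of all genes), at -0.66 with an edgeR adjusted p of 0.0419. An opposite-strand gene covers 40.5% of DUSP6 exon sequence, and reads of the pair cannot be told apart there. In that fit COP1 was at 0.42, DUSP10 at 0.38 and DUSP5 at -0.30, with edgeR adjusted p of 0.0746, 0.116 and 0.199.

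Genes described in textbooks as AP-1 targets were listed for the comparison, 22 in number with 20 tested. The list was chosen with earlier results of these data known, so its counts and median describe these genes only. By edgeR 1 passed, lower in siRBM47, where 0.137% of all genes were called lower, and DESeq2 called HBEGF higher and MMP1 and MMP3 lower (1.83% and 2.68% of all genes). The list had 5 members with positive and 15 with negative log2 fold changes, and a median of -0.49 against -0.01 for all tested genes. Without control replicate 3 edgeR called 2 higher and 7 lower, where it called 10.1% and 11.3% of all genes, with a median of -0.66 against 0.02.

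MMP1, an interstitial collagenase, was the called gene, with 0.387, 1.09 and 0.559 CPM in siRBM47 and 19.0, 24.6 and 7.98 CPM in control. The log2 fold change was -4.66 (SE 0.52, edgeR adjusted p = 0.00955), and -5.00 without control replicate 3. When any siRBM47 library was left out edgeR called 0 of all genes, and MMP1 stood at -5.15 to -4.38 with edgeR adjusted p of 0.0819 to 0.186. MMP3, the collagenase-activating stromelysin, had 5.97, 4.74 and 5.47 CPM in siRBM47, against 165, 185 and 8.73 CPM in control. It had the same arrangement as FOSL1, with control replicate 3 just above the siRBM47 libraries, and a log2 fold change of -4.47 (SE 0.88, edgeR adjusted p = 0.0739). Omitting that control library gave -5.02 with an edgeR adjusted p of 2.16e-09. WTAPP1 covers 7.6% of MMP1 and 1.6% of MMP3 exon sequence on the opposite strand. MMP10, a second stromelysin that was too scarce to test, had 0 counts in each siRBM47 library and 14, 12 and 2 in control replicates 1 to 3.

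HBEGF, an EGF receptor ligand, was the member with the smallest p among those above 0, at 30.3, 26.6 and 22.8 CPM in siRBM47 and 12.2, 12.5 and 17.6 CPM in control (log2 fold change 0.91, SE 0.23, edgeR adjusted p = 0.114). It passed without control replicate 3, at 1.10 with an edgeR adjusted p of 0.00209. TIMP1, an inhibitor of matrix metalloproteinases, had 659, 740 and 580 CPM in siRBM47 and 2341, 1846 and 479 CPM in control. Its groups overlapped because control replicate 3 was the lowest of all libraries, and its log2 fold change of -1.24 (SE 0.46, edgeR adjusted p = 0.236) was -1.67 without that library (edgeR adjusted p = 1.35e-05). Other genes of the list were picked for naming after their values were seen. Of these, CCL2 was called higher and VEGFA, PLAUR and IL11 lower in the fit without control replicate 3. Their log2 fold changes there were 2.25, -0.77, -0.69 and -0.92.

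**Figure D4:**
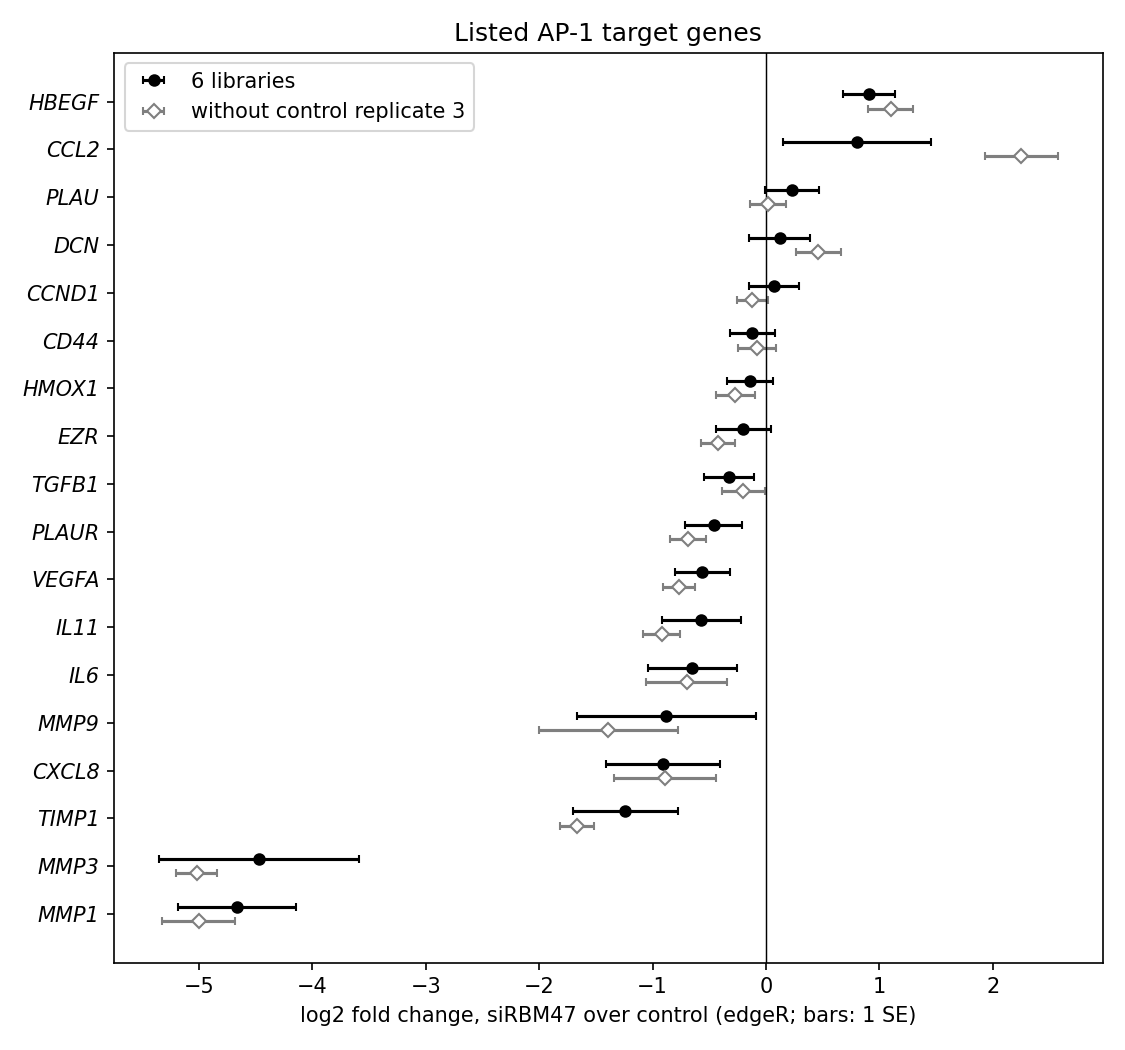
Log2 fold change of 18 of the 20 tested AP-1 target genes, siRBM47 over control, with 1 SE, over 6 libraries (filled) and without control replicate 3 (open). MMP1 and MMP3 stand lowest at -4.66 and -4.47, and 13 of the 18 filled points lie below 0.

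Genes whose log2 CPM, centred on its mean, ran closest to that of a member over the 6 libraries were found by the root mean square difference. For FOS they were MFAP4, a microfibril-associated glycoprotein (0.18), WFDC21P (0.21) and LOXL1, a lysyl oxidase that cross-links elastin (0.24). MFAP4 had 62.4, 92.7 and 71.2 CPM in siRBM47 and 19.4, 17 and 58.4 CPM in control, so that control replicate 3 again lay near the siRBM47 libraries. MFAP4 overlaps exon sequence of MAPK7 on the opposite strand. For JUN they were MAPK12, CELSR3 and PEBP1, at differences of 0.06 each. For ATF3 the nearest were PLD1, a phospholipase (0.08), and PHF21A (0.10). PLD1 had 19.8, 20.1 and 16.9 CPM in siRBM47 and 22.9, 25.5 and 43.6 CPM in control, with control replicate 3 highest, as for ATF3. This likeness over 6 libraries is a description only.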

How the data were processed

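RNA-seq tables of 6 U87 libraries (3 siRBM47, 3 control) were read, grouped by sample title. The submitters' processing notes name HISAT2 2.0.5, featureCounts 1.5.0-p3 and the build hg38. Which annotation release, strand setting and read filters were used is not given in the sources used here. Each deposited table has a column of integer read counts and a column of FPKM, per the file headers. FPKM served only for levels between genes. Symbols came from a name table that lacks 5909 of the 57905 identifiers, and positions from GENCODE 29.

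Counts were filtered with filterByExpr (minimum count 10) and tested with edgeR 4.0.16 under R 4.3.3 (quasi-likelihood test, TMM factors, group as the only term), with Benjamini-Hochberg adjustment over 14578 genes and a threshold of 0.05. Each SE was taken as |log2 fold change| divided by the root of the F statistic, and CPM use TMM-scaled library sizes. Alternatives were RLE and upper-quartile factors, DESeq2 1.42.0, limma-voom (limma 3.58.1) with and without library quality weights, no filter, a minimum count of 50, leaving out each library, and the replicate number as a block. The fit was tested on simulated data. There all libraries of a group shared a common mean per gene, so a library standing apart, as control replicate 3 does, was not covered. Replicates were compared by a chi-square test, with 10.74 to 144.83 per degree of freedom within groups, more than counting error alone gives. None was thus a plain re-sequencing of another. The test cannot tell whether replicates came from the same RNA or culture. The smallest two-sided p of an exact permutation of 3 against 3 libraries would be above the threshold, so none was run.

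Members and gene lists were chosen with earlier results of these data known. Named genes were the members, each list's called genes and its next 4 by p, and for FOS, JUN and ATF3 the 3 nearest profiles among genes averaging 3 or more in log2 CPM; some genes that this rule names are not reported here. Poisson intervals of CPM cover counting error only, and intervals of fold changes come from the edgeR SE.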

Additional observations from a re-analysis of the deposited data

How the results depend on the processing

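Calls among the 8 members depended on the library set and the tool. Against 0 higher, 0 lower and 32 genes called in all by edgeR, DESeq2 gave 1 higher, 2 lower and 644 in all, no filter gave 2, 2 and 804, and limma-voom with quality weights gave 2, 3 and 6444, at a weight of 0.117 for control replicate 3. Leaving out 1 library at a time gave 0 to 2 higher, 0 to 2 lower and 0 to 3117 in all, where the last was 19, 12 and 3117 on omitting control replicate 1, 2 and 3, and 0 on omitting any siRBM47 library. DESeq2 without control replicate 3, added after seeing the data, gave 2, 2 and 3363. The causes were not tested. Of 120 member values under alternatives, 97 kept direction and side of the threshold, 20 newly passed it and 3 changed sign: FOSL2 was 0.01 with quality weights and 0.01 without control replicate 3 by edgeR and by DESeq2, and -0.30 to 0.01 over the fits that leave out 1 library. With the replicate block 0 members and 39 genes were called. Deviations of same-numbered libraries correlated at -0.036, 0.127 and 0.116, and 3 of 6 libraries matched their own number best. No clear pairing by number was seen, but 3 libraries per group are too few to exclude one.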
